A study of Rattus norvegicus with 6 samples.

Results

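The haem synthesis enzymes were followed as 8 genes, Alas2, Alas1, Alad, Uros, Urod, Cpox, Ppox and Fech, chosen by name from the pathway. They do not cover every step of it, and Alas1 and Alas2 serve the same step. All 8 were found among the 34045 genes of the deposited table, and all 8 passed the filter on low values, which kept 15965 genes. The 6 libraries came from wild type male Sprague-Dawley rats, an outbred stock, at week 4 after surgery. Bone defects in the roof of the skull had received a CGG hydrogel in 3 libraries and a CGG-Cit hydrogel in the other 3, and the labels spell out neither name and give no age. Both groups carried an implanted gel, so no unfilled defect serves as a baseline here. Whether each library is a rat of its own is not said in the labels, so the spread behind every p-value may be technical.

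Haem is the iron-holding ring of haemoglobin, of the mitochondrial cytochromes and of peroxidases. Its synthesis starts in the mitochondrion, where 5-aminolevulinate synthase joins glycine and succinyl-CoA, moves to the cytosol for the assembly of the ring, and returns to the mitochondrion, where iron is inserted. Most cells use Alas1 for the first reaction and red cell precursors use Alas2, which together with the later enzymes rises strongly as these precursors fill with haemoglobin in the bone marrow. Calvarial bone holds marrow spaces, so RNA of a defect in the skull can hold red cell precursors beside bone, vessel and immune cells.

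Upstream sequence was shown for the genes of both ends of the pathway, the widespread first enzyme Alas1 and the last enzyme Fech, because all members were lower together in CGG-Cit and the 2 windows differ in the letters they hold. The sequences are from RefSeq on build GRCr8, 5′ to 3′ on the strand of the gene. The Alas1 stretch is chr8:115768633-115768892 on the minus strand and ends 10 bases into the gene, and the Fech stretch is chr18:60248526-60248775 on the minus strand and ends at the base before the gene. Capitals mark CACCC, the core of sites of Klf1 and its relatives, in Alas1. They also mark there CGCATGC, from the middle of the site of nuclear respiratory factor 1, merged with its overlapping match on the other strand. In Fech they mark TTATC, the reverse strand of the GATA factor motif. Fech also holds CACCC, on the other strand at bases 20 to 24 of the gene, past its printed stretch. A further CACCC of Alas1, at bases 15 to 19, lies past its stretch as well.
Alas1: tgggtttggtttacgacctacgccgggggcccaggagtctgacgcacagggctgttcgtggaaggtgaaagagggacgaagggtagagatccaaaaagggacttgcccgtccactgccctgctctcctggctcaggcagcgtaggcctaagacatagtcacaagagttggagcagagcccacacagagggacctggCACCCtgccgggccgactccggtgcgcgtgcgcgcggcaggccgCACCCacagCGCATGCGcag
Fech: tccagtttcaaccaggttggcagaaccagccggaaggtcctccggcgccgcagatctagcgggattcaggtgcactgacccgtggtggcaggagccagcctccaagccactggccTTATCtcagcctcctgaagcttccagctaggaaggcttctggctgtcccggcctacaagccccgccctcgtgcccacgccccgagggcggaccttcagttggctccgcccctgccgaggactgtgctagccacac
Of the 8 members, 7 had a window of 300 bases in the table, 250 before the start and 50 after it. Both strands were searched for the GATA factor motif GATAA and for the other motifs, and a match describes letters only. The motif GATAA stood in 2 of 7 member windows, Alas2 and Fech, against 26.5% of all 33469 windows. CACCC stood in 3 of 7, Alas1, Alad and Fech, against 54.9%, and the E-box, spelled CACGTG, in 2 of 7, Alad and Urod, against 6.42%. Among the 7 windows only that of Alas1 held CGCATGC, beginning at the base before the start, and 3.33% of all windows held it. The Alas2 window begins its gene model 4800 bases inside the gene as RefSeq lists it, and those of Uros and Ppox lie 955 and 782 bases inside, so they may not hold the main start of these genes and are not shown.

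All 8 haem synthesis genes were lower in the CGG-Cit defects. With limma on log2(FPKM + 1), 8 of 8 fell and 0 rose at an adjusted p under 0.05, with adjusted p of 0.0129 to 0.0409. Over all genes tested, 9.78% passed in this direction and 7.75% passed as higher. The log2 fold changes, CGG-Cit minus CGG, ran from -1.46 for Alas2 to -0.55 for Ppox, with a median of -1.001 against 0.002 for all genes tested. Since all 8 passed as lower, none could be higher at an unadjusted p under 0.05 (0 of 8). With voom on recovered reads 0 of 8 were higher as well. The groups did not overlap for any of the 8 genes, where 22.1% of all genes were lower and 19.6% higher without overlap. In tissue RNA, fewer of the cells that hold these RNAs, whichever they are, and less RNA per cell cannot be told apart. Uros and Urod passed without CGG 1, without CGG 2 or without CGG-Cit 1, when the count was 2 of 8 each time, and 0 of 8 passed without CGG 3 (lowest adjusted p = 0.0503) or without CGG-Cit 2 (0.051). The count was 8 without CGG-Cit 3, and 6 after rescaling to TPM, where Alas1 and Ppox did not pass (adjusted p = 0.0952 and 0.104). Lower calls over all genes tested made up 4.17%, 3.12% and 1.19% without CGG 1, 2 and 3. They made up 3.06%, 1.56% and 10.2% without CGG-Cit 1, 2 and 3, and 5.94% with TPM.

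**Figure D1:**
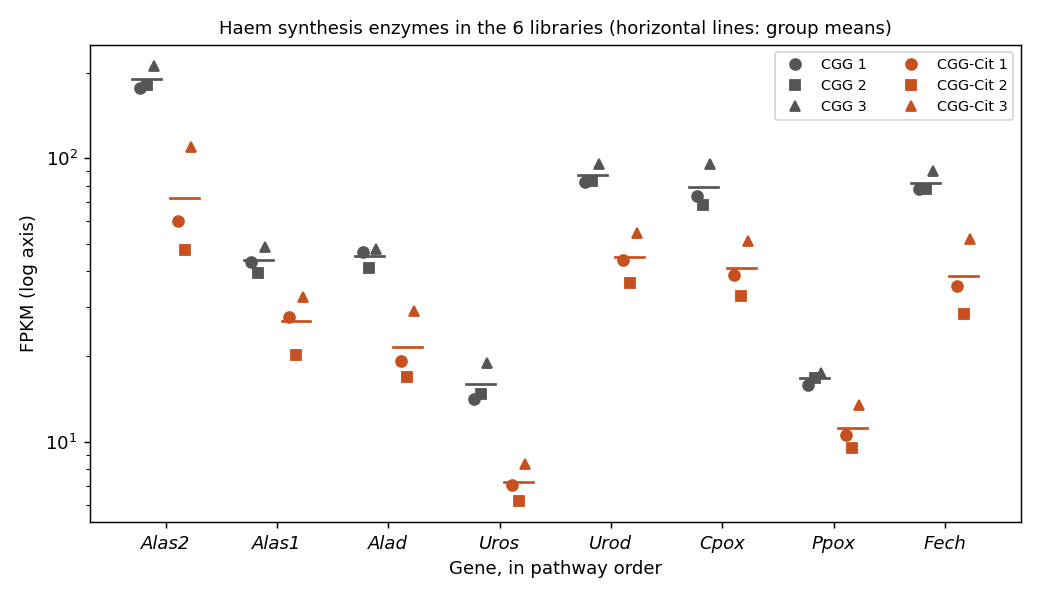
FPKM (a fragment count divided by gene length and a scaling factor of the library, log axis) of the 8 genes in pathway order, 1 point per library, with group means as horizontal lines. All CGG-Cit points of a gene lie below all its CGG points, and CGG-Cit 2 is the lowest and CGG-Cit 3 the highest of the CGG-Cit libraries in all 8 genes.

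Alas2, the first enzyme in red cell precursors (ENSRNOG00000000167, listed at chromosome X, 23167696 to 23187341), was the most abundant member and the one with the largest fall. It stood at 177, 181 and 211 FPKM in CGG 1, 2 and 3 and at 60.2, 47.6 and 109 FPKM in CGG-Cit 1, 2 and 3. CGG-Cit 3 was the highest of its group and still lay below the lowest CGG library. The means were 189.7 ± 18.3 and 72.3 ± 32.5 FPKM (SD, n = 3), a 2.62-fold difference, and the log2 fold change was -1.46 ± 0.288 (SE; limma adjusted p = 0.0231). CGG-Cit 2 reached 25.1% of the CGG mean, CGG-Cit 1 31.7% and CGG-Cit 3 57.5%.

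Alas1, the first enzyme of most other cells (ENSRNOG00000056596, listed at chromosome 8, 114927722 to 114940177), fell less. Its levels were 43.1, 39.2 and 48.7 FPKM in CGG and 27.6, 20.2 and 32.4 FPKM in CGG-Cit. The groups came within a few FPKM of each other, between CGG 2 and CGG-Cit 3, without overlapping. The means were 43.7 ± 4.74 and 26.7 ± 6.15 FPKM (SD, n = 3), and the log2 fold change was -0.71 ± 0.179 (SE; limma adjusted p = 0.0409).

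Because FPKM is a level per length, both genes of the first step could be compared within each library. Alas2 made up 80.5%, 82.2% and 81.2% of the summed Alas1 and Alas2 level in the CGG libraries. Its share was 68.6%, 70.2% and 77.1% for CGG-Cit 1, 2 and 3. All CGG-Cit libraries lay below all CGG libraries in this share, with CGG-Cit 3 closest to them. The log2 ratio of Alas2 to Alas1 averaged 2.12 ± 0.0826 (SD, n = 3) among CGG and 1.37 ± 0.332 among CGG-Cit libraries, a difference of -0.75 that does not depend on library scaling. A two-sided exact permutation test over the 20 assignments of the libraries gave p = 0.1, the smallest it can give, so this design cannot pass 0.05. With each library left out in turn the difference stayed between -0.94 and -0.63.

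The next enzymes work in the cytosol. Alad, which joins pairs of 5-aminolevulinate molecules into porphobilinogen (ENSRNOG00000015206, listed at chromosome 5, 78368867 to 78379346), stood at 46.9, 41.0 and 47.7 FPKM in CGG and at 19.2, 16.97 and 28.8 FPKM in CGG-Cit. Its lowest CGG library, CGG 2, was above its highest CGG-Cit library, CGG-Cit 3. The log2 fold change was -1.06 ± 0.193 (SE; limma adjusted p = 0.0199), with means of 45.2 ± 3.69 and 21.7 ± 6.31 FPKM (SD, n = 3).

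Uros, which closes the tetrapyrrole ring as uroporphyrinogen III (ENSRNOG00000017810, listed at chromosome 1, 205756640 to 205777167), was the least abundant member on average in both groups. It stood at 14.1, 14.8 and 19.02 FPKM in CGG and at 7.02, 6.21 and 8.36 FPKM in CGG-Cit. The CGG-Cit libraries lay close together, with a coefficient of variation of 15.1%, the smallest in that group. The log2 fold change was -1.05 ± 0.153 (SE; limma adjusted p = 0.0129), the lowest p of the 8 genes, and the means were 16.0 ± 2.65 and 7.198 ± 1.09 FPKM (SD, n = 3). Uros lies on the minus strand, and its first 38 bases in the table overlap Bccip on the plus strand, at 15.5 FPKM in CGG and 12.2 in CGG-Cit, and without a stated strand setting the reads of this stretch cannot be told apart.

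Urod, which removes carboxyl groups to give coproporphyrinogen III (ENSRNOG00000018211, listed at chromosome 5, 135855433 to 135859643), was the second most abundant member in every library. Its values were 82.4, 83.1 and 95.2 FPKM in CGG and 43.6, 36.4 and 54.6 FPKM in CGG-Cit. A wide gap separated the groups, from 54.6 FPKM in CGG-Cit 3 to 82.4 in CGG 1. The means were 86.9 ± 7.19 and 44.8 ± 9.17 FPKM (SD, n = 3), and the log2 fold change was -0.96 ± 0.156 (SE; limma adjusted p = 0.0161).

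The last 3 genes act at or in the mitochondrion. Cpox, which makes protoporphyrinogen (ENSRNOG00000001654, listed at chromosome 11, 44039669 to 44049648), stood at 73.7, 68.1 and 95.0 FPKM in CGG and at 38.9, 32.8 and 51.2 FPKM in CGG-Cit. Its CGG libraries spread the most of any member, with a coefficient of variation of 18.0%, through the high value of CGG 3. The log2 fold change was -0.94 ± 0.193 (SE; limma adjusted p = 0.0251), and the means were 79.0 ± 14.2 and 40.9 ± 9.37 FPKM (SD, n = 3).

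Ppox, which oxidises protoporphyrinogen to protoporphyrin (ENSRNOG00000003567, listed at chromosome 13, 89650094 to 89654244), showed the smallest difference. It stood at 15.9, 16.8 and 17.5 FPKM in CGG and at 10.6, 9.53 and 13.5 FPKM in CGG-Cit. The CGG libraries were nearly level, with a coefficient of variation of 5.01%. The means were 16.8 ± 0.839 and 11.2 ± 2.05 FPKM (SD, n = 3), and the log2 fold change was -0.55 ± 0.136 (SE; limma adjusted p = 0.0374).

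Fech, which inserts iron to finish haem (ENSRNOG00000018053, listed at chromosome 18, 59941992 to 59975192), showed the second largest difference after Alas2. Its levels were 77.7, 77.7 and 89.9 FPKM in CGG and 35.3, 28.2 and 51.9 FPKM in CGG-Cit. CGG-Cit 3 again lay nearest to CGG, at 63.5% of the CGG mean, against 43.2% in CGG-Cit 1 and 34.5% in CGG-Cit 2. The log2 fold change was -1.11 ± 0.213 (SE; limma adjusted p = 0.0219), with means of 81.8 ± 7.04 and 38.5 ± 12.2 FPKM (SD, n = 3).

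The order of the levels was alike in both groups. Alas2 stood first and Urod second in all 6 libraries, Fech and Cpox shared the next places, Alad and Alas1 followed, and Ppox and Uros were lowest. In CGG the steps from Alas2 to Urod, from Cpox to Alad and from Alas1 to Ppox did not overlap between libraries, whereas Urod and Fech, Fech and Cpox, Alad and Alas1, and Ppox and Uros overlapped. In CGG-Cit Alas2 (47.6 FPKM at its lowest) overlapped Urod (54.6 at its highest), although it was the higher of the pair in each library. Alas1 was above Alad in all 3 CGG-Cit libraries and in 1 of 3 CGG libraries.

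All members also shared 1 order of the CGG-Cit libraries. CGG-Cit 2 was lowest, CGG-Cit 1 next and CGG-Cit 3 highest of its group in 8 of 8 genes. CGG 3 was the highest CGG library in 8 of 8, and the share of all genes with that trait was not computed. The order of CGG 1 and CGG 2 differed between members. The order of CGG-Cit 2, 1 and 3 with every CGG library above them was met by 7.75% of all genes tested. The summed level of the 8 genes was 531, 522 and 624 FPKM in CGG 1, 2 and 3 and 242, 198 and 350 FPKM in CGG-Cit 1, 2 and 3. The genes held 151 to 5610 recovered fragments per library, which gives a counting error of 1.34% to 8.14%. The coefficient of variation was 5.01% to 18.0% in CGG and 15.1% to 44.9% in CGG-Cit. For Ppox in CGG the counting error, 4.55% at its lowest, was about as large as the coefficient of variation of 5.01%. The spread was wider in CGG-Cit for 7 of 8 genes, Uros being the exception.

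**Figure D2:**
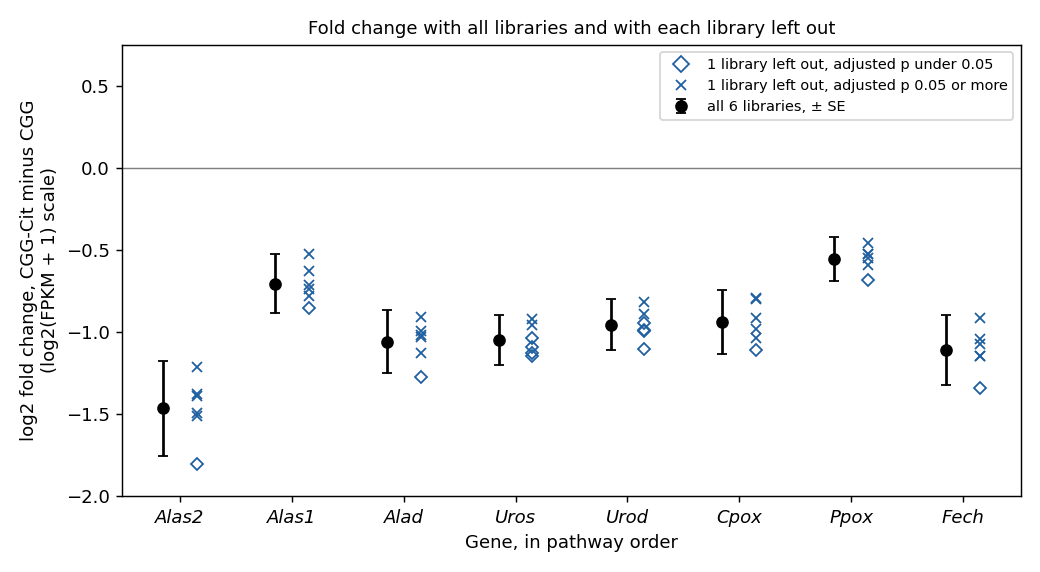
Log2 fold change (CGG-Cit minus CGG, log2(FPKM + 1) scale) of each gene with all 6 libraries (black, ± SE) and with 1 library left out (blue; diamonds passed at an adjusted p under 0.05, crosses did not). Every point lies below 0, from -1.80 for Alas2 to -0.46 for Ppox, and the lowest point of each gene, the fit without CGG-Cit 3, passed.

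The members were next set beside the red cell markers of the same library. Of 19 measured erythroid genes 18 fell and 0 rose, with a median log2 fold change of -1.19 (18 after rescaling to TPM, and 7, 5, 1, 6, 5 and 19 without CGG 1, 2, 3 and CGG-Cit 1, 2, 3). They include Icam4 (-1.19), an adhesion molecule, Hbb-b1 (-1.66), a beta globin, Kel (-1.41), Rhd (-1.39) and Ermap (-1.03), surface proteins of red cells, and Ahsp (-1.43), the chaperone of alpha globin. The summed level of the list was 24924 to 30427 FPKM in CGG and 8475, 8144 and 16029 FPKM in CGG-Cit 1, 2 and 3. Most of this sum was Hba-a1, an alpha globin, with 23308 of 24924 FPKM in CGG 1 and 7820 of 8475 FPKM in CGG-Cit 1. None of the 19 was at 0 in any library.

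Alas2 was then taken relative to these markers. Its log2 level minus the mean log2 level of the 19 markers was 1.35, 1.33 and 1.29 in CGG and 1.08, 1.04 and 1.34 in CGG-Cit. The groups overlapped, since CGG-Cit 3 lay within the CGG range, and the difference was -0.17 (two-sided exact permutation p = 0.3; smallest possible 0.1). Without CGG-Cit 3 the difference was -0.26, with the CGG-Cit libraries below all CGG libraries.

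The other 7 members averaged higher against the markers in CGG-Cit than in CGG. For Alas1 the same difference was 0.58, from -0.88 to -0.70 in CGG to -0.41 to -0.04 in CGG-Cit. Ppox stood at 0.71, Cpox at 0.35, Urod at 0.34 and Fech at 0.18, and in each of these 5 genes all CGG-Cit libraries lay above all CGG libraries. Alad (0.22) and Uros (0.16) had overlapping groups. These values were not tested, and all share the same 19 markers as denominator. The mean log2 level of these markers was 6.24 in CGG and 4.93 in CGG-Cit. Any gene that fell less than they did thus averaged higher here, and the median log2 fold change of all genes tested was 0.002. The share of all genes without overlap on this measure was not computed.

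**Figure D3:**
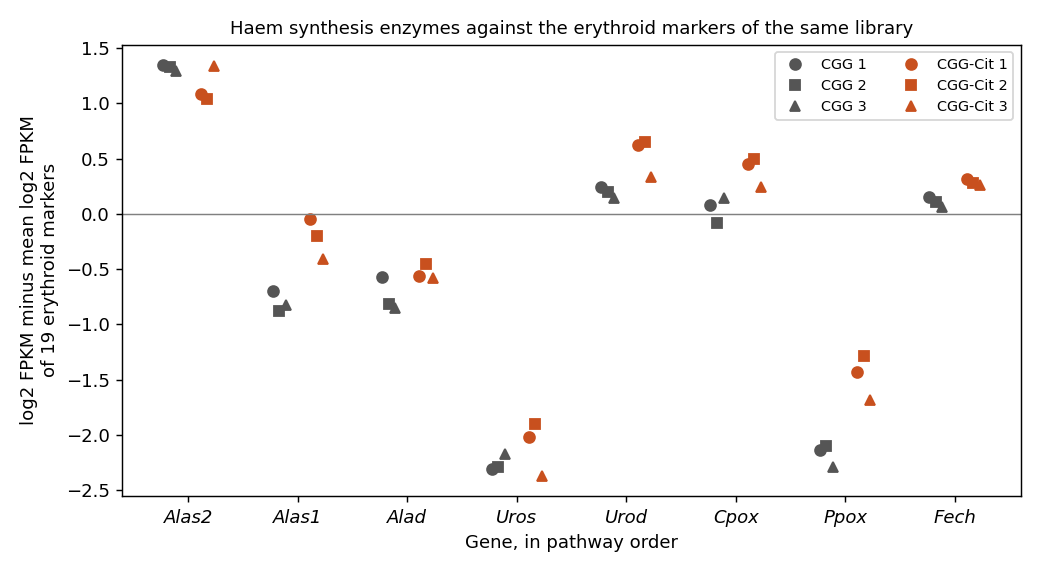
Log2 FPKM of each gene minus the mean log2 FPKM of 19 erythroid markers in the same library, 1 point per library. Alas2 lies at 1.04 to 1.35 in both groups with overlap, whereas Alas1, Urod, Cpox, Ppox and Fech lie higher in every CGG-Cit library than in any CGG library. The marker mean itself was lower in CGG-Cit (4.93) than in CGG (6.24). Any gene that fell less than the markers averages higher on this measure.

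Genes that carry haem precursors and iron to the enzymes moved in part with them. Of 21 measured, 6 fell and 1 rose, with a median of -0.27. Slc25a38, the mitochondrial carrier that brings in glycine for Alas2, stood at 21.2, 23.3 and 25.2 FPKM in CGG and at 15.5, 12.9 and 15.3 FPKM in CGG-Cit, with no overlap and a log2 fold change of -0.64 (limma adjusted p = 0.0182). Slc25a37, the mitochondrial iron importer mitoferrin-1 of red cell precursors, fell by 1.07, Tfrc, the transferrin receptor for iron uptake, fell by 1.06, and Abcb10, a mitochondrial transporter that partners mitoferrin-1, fell by 0.84. Tspo2, a membrane protein of red cell precursors, fell from a mean of 21.0 ± 1.03 to 5.59 ± 1.81 FPKM (SD, n = 3). Its call held in all 18 alternative fits. Pgrmc1, a haem-binding membrane protein, rose by 0.73. Tmem14c, needed for the passage of protoporphyrinogen into the mitochondrion, stood at 159 ± 14.6 and 127 ± 14.8 FPKM (limma adjusted p = 0.107). After rescaling to TPM 4 genes fell and 3 rose, and without CGG 2, CGG 3 or CGG-Cit 2 only Tspo2 passed.

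Regulators of the pathway went both ways. Of 14 tested, 5 fell and 2 rose (median -0.36). Nfe2, a factor of red cell and platelet precursors, fell by 1.52, Klf1, an activator of globin and haem genes in red cell precursors, by 1.38, Tal1, a blood stem and red cell factor, by 1.23 and Zfpm1, the partner of GATA factors, by 0.52. The fifth was Gata2 (-0.80), a factor of early blood cells, named here after its value was seen. Gata1, the main red cell GATA factor, was read at 0.44, 2.44 and 0.67 FPKM in CGG and at 0.28, 0.21 and 0.32 FPKM in CGG-Cit, a low level with 1 library apart (limma adjusted p = 0.207). Aco1, an iron regulatory protein that acts on messages such as that of Alas2, rose by 0.62, and Nfe2l2, a factor of the oxidative stress response, rose by 0.43.

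Several regulators did not pass the test. Ireb2, the other iron regulatory protein, averaged 18.4 ± 2.59 and 16.25 ± 1.197 FPKM (limma adjusted p = 0.392). Bach1, a haem-sensing repressor, averaged 8.69 ± 0.383 and 9.18 ± 1.13 FPKM (adjusted p = 0.714, limma). Eif2ak1, the haem-regulated kinase of translation, averaged 40.7 ± 2.68 and 31.7 ± 2.50 FPKM (adjusted p = 0.0514, limma), and Nrf1, the nuclear respiratory factor whose site was searched above, 14.75 ± 1.33 and 11.1 ± 0.926 FPKM (adjusted p = 0.0574, limma). For both Eif2ak1 and Nrf1 all CGG-Cit libraries lay below all CGG libraries, and each passed as lower in 3 of 18 alternative fits. Ppargc1a, a coactivator of Alas1 in liver, lay under the filter at 0.321 to 0.696 FPKM in CGG and 0.0653 to 0.118 in CGG-Cit, and it passed as lower in the fit without that filter (limma adjusted p = 0.0472). Of the regulators, 0 passed without CGG 2, CGG 3 or CGG-Cit 2, and 1 without CGG 1 or CGG-Cit 1.

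Of 4 haem breakdown genes measured, 1 rose and 0 fell. Blvra, a biliverdin reductase, stood at 40.1, 52.6 and 51.6 FPKM in CGG and at 101.3, 88.3 and 61.3 FPKM in CGG-Cit, a log2 fold change of 0.77 (limma adjusted p = 0.0468), and this call ended without the filter on low values, with the replicate block and in every fit that left out a library other than CGG-Cit 3. Hmox1, the inducible haem oxygenase of macrophages and stressed cells, stood at 65.8, 76.7 and 71.9 FPKM in CGG and at 176, 84.8 and 72.9 FPKM in CGG-Cit. Only CGG-Cit 1 was clearly apart, and the gene did not pass (limma adjusted p = 0.279). Hmox2 (0.43) did not pass either (limma adjusted p = 0.265). Blvrb, the other biliverdin reductase, stood at 67.4, 60.4 and 71.5 FPKM in CGG and at 51.8, 39.5 and 53.8 FPKM in CGG-Cit, without overlap (log2 fold change -0.46, limma adjusted p = 0.0657), and passed as lower only with sample quality weights among the 18 alternative fits.

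Genes of haem a synthesis and of haem-holding or partner proteins were mixed. Of 20 tested, 6 fell and 1 rose (median -0.23). After rescaling to TPM 3 fell and 5 rose, and with a library other than CGG-Cit 3 left out 0 to 4 fell. The falls named by the rule were Mb (-5.82), the myoglobin of muscle, Mpo (-1.75), the myeloperoxidase of neutrophils, and the respiratory chain genes Cyc1 (-0.68), Cycs (-0.63) and Uqcrc1 (-0.54). Cybb, the haem-holding subunit of the phagocyte oxidase, rose by 0.81, with 246, 232 and 259 FPKM in CGG and 405, 529 and 372 FPKM in CGG-Cit. Among 15 genes chosen for mitochondrial content 7 fell and 0 rose (median -0.37), Vdac1, the outer membrane channel, having the smallest p (-0.82), followed by Atp5f1a (-0.70), Idh3a (-0.74), Uqcrc2 (-0.46) and Sucla2 (-0.54). That count was 3 after rescaling to TPM and also without CGG-Cit 3, 7 without CGG 1, 1 without CGG 2, CGG 3 or CGG-Cit 1 and 0 without CGG-Cit 2.

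**Figure D4:**
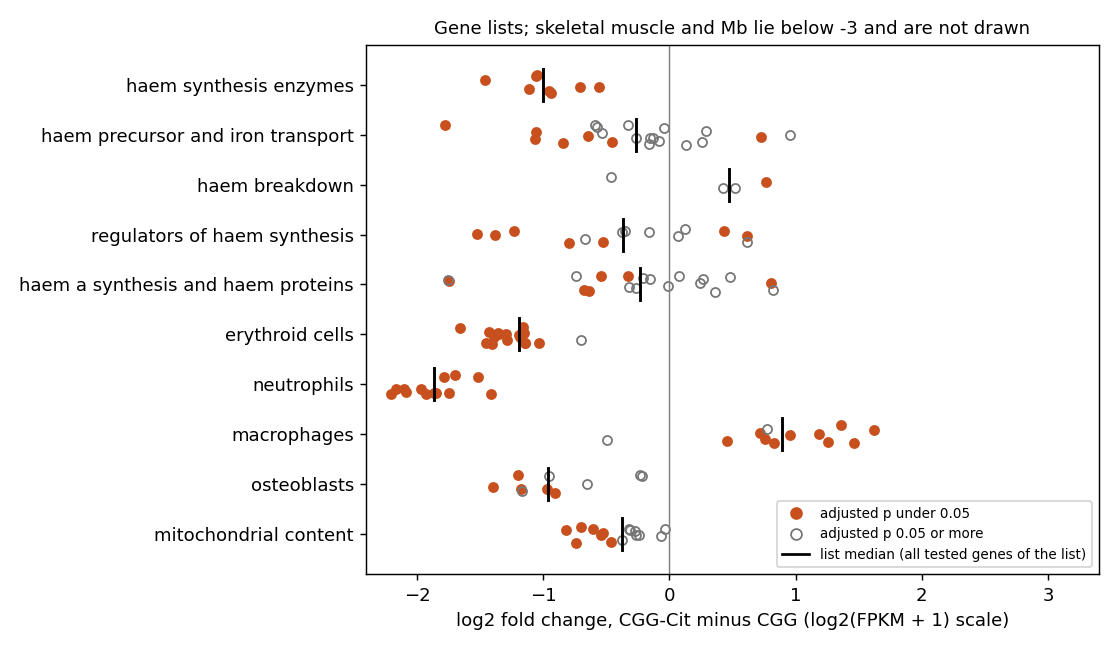
Log2 fold change (CGG-Cit minus CGG, log2(FPKM + 1) scale) of the tested genes of each list, filled where the adjusted p was under 0.05, with the list median as a black bar. The skeletal muscle list and Mb, which lie lower, are not drawn. The median of the haem synthesis enzymes (-1.001) lies near those of the osteoblast (-0.96) and erythroid (-1.19) lists. The macrophage list (median 0.90) and the short haem breakdown list lie mostly above 0.

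Markers of other cells differed between the groups as well. The 11 measured skeletal muscle genes all fell (median -5.43), with summed levels of 8277, 5945 and 6862 FPKM in CGG and 94.0, 48.4 and 324 FPKM in CGG-Cit 1, 2 and 3. The 13 tested neutrophil genes all fell (median -1.87), with sums of 16027 to 18113 and 2616 to 6753 FPKM. In both lists CGG-Cit 2 was lowest and CGG-Cit 3 highest of its group, as in the haem genes. Of 12 macrophage genes 10 rose and 0 fell, with sums of 1128 to 1264 and 2048 to 3070 FPKM, and here CGG-Cit 2 was highest and CGG-Cit 3 lowest of its group. Of 10 bone-forming cell genes 5 fell and 0 rose (median -0.96). Their sums of 10709 to 15296 and 5175 to 9688 FPKM, largely Col1a1, Bglap and Spp1, hold none at 0 in any library. With 1 library other than CGG-Cit 3 left out, 9 to 11 muscle and 0 to 6 neutrophil genes fell, 1 to 10 macrophage genes rose and 1 to 5 bone-forming cell genes fell. In these lists Ltf alone, of the neutrophil list, was at 0 in a library. The part of these cell types in the fall of the haem synthesis genes was not tested.

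For each haem synthesis gene the 5 nearest of 13906 other named protein-coding genes were listed, by the Euclidean distance of log2(FPKM + 1) centred over the 6 libraries. Nearest to Alas2 were Nfe2 (distance 0.159), Klf1 (0.216), Tuba4a, Rab44 and Mcpt1l4. Nearest to Alad were Ccnd3 (0.098), a cyclin, Cdc7, Kif22, Aurkb and Hmgn2, and nearest to Urod were Slc14a1 (0.0821), a urea transporter of red cells and kidney, Tacc3, Mcm6, Ska1 and Ska3. Cpox had Paqr9 (0.0684), Incenp, Chaf1a, Mcm2 and Mcm6, and Uros had Exo1 (0.145), Ifrd2, Cdt1, Wnk2 and Lrr1. Fech had Pmf1 (0.0911), Fam117a, Hmgn2, Slc43a1 and Aurkb, so that Hmgn2 and Aurkb were near both Alad and Fech. Alas1 had Haspin (0.103), Rpa2, Ucp2, Yod1 and Ripor2, and Ppox had Psmc3ip (0.058), Dstn, Bsdc1, Ddx11 and Sun2. None of the 8 members was among the 5 nearest of another. The closest pair of members was Alad and Fech (0.198) and the farthest Alas2 and Ppox (1.24), a distance that reads both the size and the shape of the differences over 6 libraries.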

How the data were processed

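Per the labels' protocols, bulk RNA of calvarial defects was read from both ends of each fragment by Illumina sequencing. The authors deposited FPKM per gene. Programs listed in the submitters' processing notes are DESeq2 1.20.0, featureCounts 1.5.0-p3 and HISAT2 2.0.5, beside the build mRatBN7.2, without their roles. For strand setting and annotation release, nothing is stated. The table lists a gene end at 282724300 on chromosome 1, past the last one in GRCr8 (270492571), so gene coordinates are printed as listed, with no build. FPKM times gene length gave whole multiples of the value of 1 fragment in 100% of values above 0 (within 0.01 fragments), with totals of 14744207 to 16224920 per library. The library scale implied by these values was 0.100% to 0.681% off median-of-ratios factors, which follow the median gene. It was 0.833% to 5.58% off the fragment totals.

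Genes averaging 0.5 FPKM or more were tested in R 4.3.3 with limma 3.58.1 (trend) on log2(FPKM + 1), which understates changes of low genes, and p-values were adjusted by Benjamini-Hochberg over all 15965 genes. The fit was tested on simulated data. Ratios within a library used exact permutation tests. Members and the 10 other lists were chosen with earlier results of these data known. Of their 146 symbols 141 matched, and the others, Nos2, Myh2, Myh4 and Atp2a1 among them, were not analysed here. Genes named were the members, up to 6 of each list with the smallest p, 15 by name and the 5 nearest to each member. Motifs were chosen after the windows were seen. Some genes that these rules cover are not reported here. Alternatives were 2 pseudocounts (0.1, 0.5), 2 filters, 4 scalings, robust variances, quality weights, a replicate block, voom on recovered reads and each library left out.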

Additional observations from a re-analysis of the deposited data

How the results depend on the processing

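All 8 genes stayed lower in all 18 alternative fits. Their count at an adjusted p under 0.05 (8) ranged from 0 to 8 with each library left out. In those fits fewer libraries were compared, and 1.19% to 10.2% of all genes passed as lower, against 9.78% with all libraries. It was 6 without the filter on low values, where 22222 genes were tested and Alas1 and Ppox did not pass, 6 with TPM, where the median log2 fold change of all genes was 0.16 against 0.002, and 8 with the other scalings, pseudocounts and voom. Median-of-ratios scaling, also used with voom, nearly repeats the deposited scale (member median -0.998 against -1.001), so its count of 8 adds little. TPM gave 2203 higher and 948 lower genes, 69.9% higher, against 1237 and 1561, 44.2% higher. With the replicate number as a block 7 of 8 passed, Ppox (adjusted p = 0.0592) not, and 1055 genes were lower and 612 higher. For libraries of the same number, deviations from the group means correlated at -0.0956, 0.00165 and -0.0779. No library correlated best with its own number, which does not show that they are unpaired. Within the block, the difference in the log2 ratio of Alas2 to Alas1 was -0.75 (exact sign-flip p = 0.25, the smallest possible). With 3 libraries a group, a miss of the threshold does not show that levels are alike.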
